A study of Mus musculus with 33 samples.

Results

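Iron recycling is the work of macrophages that engulf aged red blood cells. The haem of haemoglobin is moved out of the phagolysosome, opened to biliverdin, carbon monoxide and iron, and the iron is then stored in ferritin or exported to plasma transferrin. In the mouse this takes place mainly in the red pulp of the spleen, which is also a site of red cell production. The 10 genes described here cover these steps: Slc48a1, Cd163 and Slc11a1 in uptake and transport, Hmox1, Blvra and Blvrb in haem breakdown, Slc40a1 and Trf in export and plasma transport, and Fth1 and Ftl1 in storage. They were chosen by name, and each had exactly 1 row in the expression table, so 10 of 10 were found among 56414 rows, of which 36109 held at least 1 read. All 10 passed the filter on low values, a mean normalised count of at least 10, under both tissue labels.

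The libraries came from C57Bl/6 mice, which the study describes in general as females aged 6 to 15 weeks. Treated mice drank water with 0.5% nicotinamide (NAM, the amide form of vitamin B3), and untreated mice did not. The 33 libraries of polyA RNA are labelled lymph node (3 untreated, 2 after 1 day, 4 after 3 days and 4 after 14 days of NAM) or spleen (5 in each of the same 4 groups). All p-values thus measure the spread between libraries, since nothing in the labels says that they come from separate cages or experiments. For tests within a label this is the spread of that label, and for differences between the labels it is pooled over both. The 3 durations share their untreated libraries. Libraries labelled lymph node held 30424968 to 46733974 reads and libraries labelled spleen 18325061 to 54830743.

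The tissue labels went against tissue markers. Glycam1, a mucin that high endothelial venules of lymph nodes make, lay between 1.59 and 12.4 normalised counts in the libraries labelled lymph node and between 108200 and 214200 in those labelled spleen. Spic, the transcription factor that red pulp macrophages need, lay between 6117 and 10490 in the libraries labelled lymph node and between 774.3 and 1295 in those labelled spleen. In the lists of venule and red pulp markers used below, most others went the same way. Madcam1 did not (577 to 956 under the lymph node label, 137 to 402 under the spleen label). Nor did Pparg (medians 821 and 1020), and Clec4f was near 0 under both. The names of the tissues are therefore given below only as labels. Values are counts divided by a size factor that may have been set separately for each label, so tests were made only within a label or on differences of changes. One library, labelled lymph node after 1 day (replicate 1), stood apart by its pancreatic acinar markers, which summed to 115670 normalised counts against 628.1 to 1270.3 in the other 12.

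Cells set ferritin and ferroportin output partly through the iron-responsive element, an RNA hairpin with a bulged C and a loop, which iron regulatory proteins grip when iron is scarce. In a 5′ UTR this blocks translation, and in a 3′ UTR it protects the transcript from decay. The element is shown because it joins members of both the storage and the export step and is read at the protein level, which transcript counts do not measure. A search of transcripts for a C, a 5-pair stem and the loop CAGTGN (sense strand of the transcript) found it in the 5′ UTR of 3 of the 10 genes, namely Fth1, Ftl1 and Slc40a1, and in 30 of 20186 protein-coding genes with a 5′ UTR long enough to hold it (0.149%). It also matched Alas2, the first enzyme of haem synthesis in red cell precursors, in its 5′ UTR, and Tfrc, the transferrin receptor, at 4 places in its 3′ UTR, as 128 of 20867 genes did at least once in a 3′ UTR (0.613%). Among the other listed genes, leaving out those on a chromosome that is not reported here, Keap1 and Cpb1 matched in coding sequence or at its edge. The transcripts are those of GENCODE vM21 on GRCm38, the sequence of mm10, and the matched windows of 27 bases are given 5′ to 3′ with the bulged C (position 6) and the loop (positions 12 to 17) in capitals. For Tfrc the first of the 4 is given.
Fth1, chr19:9982733-9982759, plus strand: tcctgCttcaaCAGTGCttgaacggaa
Ftl1, chr7:45459780-45459806, minus strand: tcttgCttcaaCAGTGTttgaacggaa
Slc40a1, chr1:45925466-45925492, minus strand: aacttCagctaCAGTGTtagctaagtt
Alas2, chrX:150547459-150547485, plus strand: tggttCgtcctCAGTGCagggcaacag
Tfrc, chr16:32631220-32631246, plus strand: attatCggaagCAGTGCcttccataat

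In untreated libraries labelled lymph node the storage genes and Hmox1 stood highest per length of transcript. There, Ftl1, the ferritin light chain, had a mean of 56178 normalised counts per kilobase of exon, Hmox1, the oxygenase that opens the haem ring, 24587, and Fth1, the ferritin heavy chain, 23976. Trf, the plasma iron carrier transferrin, followed at 5936, Slc48a1, the transporter that brings haem out of the phagolysosome, at 3727, and Blvrb, which reduces biliverdin isomers and flavins and is abundant in red cells, at 3231. Slc40a1, the iron exporter ferroportin, had 1765, Slc11a1, a metal transporter of the phagosome membrane, 1166, Blvra, which turns biliverdin into bilirubin, 900, and Cd163, the receptor for haemoglobin bound to haptoglobin, 208. Under the spleen label Fth1 (24211) and Ftl1 (22141) led on the same scale, followed by Trf (5159) and Slc48a1 (1401), and Hmox1 stood at 1313. Both ferritin genes have near-identical copies elsewhere in the genome, and how reads were shared between them is not given in the sources used here, so the ferritin levels are uncertain to that degree. The length used is that of all annotated exons of a gene, some of which may not be used in these tissues. For other RNA-seq sets of the study only reads on constitutive regions were counted, and which exons were counted here is not given in the sources used here, so the order of genes with close values, such as Hmox1 and Fth1, is uncertain.

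**Figure D1:**
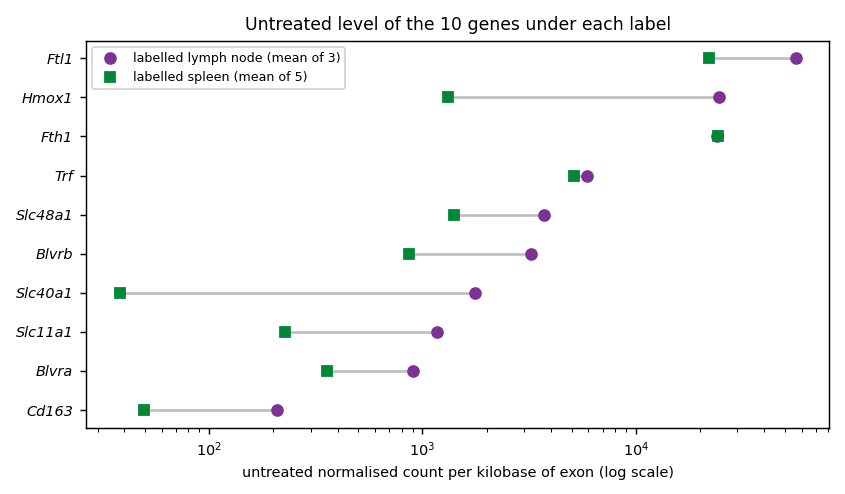
Mean untreated level of the 10 genes, as normalised counts per kilobase of exon on a log axis, in libraries labelled lymph node (circles, 3 libraries) and spleen (squares, 5 libraries). Slc40a1 and Hmox1 have the widest gap between the labels, 46.3-fold and 18.7-fold, and Fth1 and Trf lie close together. The labels may have been scaled separately.

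The labels differed most in the exporter and in the haem-opening enzyme. The untreated mean of Slc40a1 was 15888 ± 968 (SD, n = 3) under the lymph node label and 343 ± 91.7 (SD, n = 5) under the spleen label, a ratio of 46.3. Hmox1 stood at 43052 ± 4104 (SD, n = 3) and 2298 ± 541 (SD, n = 5), a ratio of 18.7. For neither gene did the libraries of the 2 labels overlap. Slc11a1, Cd163, Blvrb, Slc48a1, Ftl1 and Blvra were 2.53 to 5.11 times as high under the lymph node label, while Trf was 1.15 times and Fth1 0.99 times as high. These ratios are descriptions across sets that may have been scaled separately, and they carry no test.

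The erythroid decline that the genes are set beside appeared in the libraries labelled lymph node. A list of 19 genes of red cell precursors, among them globins, Alas2, Slc4a1 and Klf1, was summarised as a score, the mean of log2(normalised count + 1). Untreated libraries scored 11.3 ± 0.22 (SD, n = 3), and treated ones 10.7 ± 0.15 (SD, n = 2) after 1 day, 8.43 ± 1.07 (SD, n = 4) after 3 days and 9.49 ± 0.60 (SD, n = 4) after 14 days. None of the 19 genes was called by limma with Benjamini-Hochberg adjustment after 1 day (smallest adjusted p = 0.246), 16 were lower after 3 days and 5 after 14 days (Klf1, Gata1, Ermap, Sptb and Tspo2). Globin transcripts took 4.11 to 8.50% of the reads in untreated libraries, 2.80 to 5.49% after 1 day, 0.923 to 3.92% after 3 days and 2.32 to 3.35% after 14 days. The summed list ran from 1458720 to 3063330 normalised counts untreated, 998656 to 2143610 after 1 day, 321214 to 1389760 after 3 days and 795461 to 1189400 after 14 days, and none of the 19 was at 0 in any of these libraries. Under the spleen label the list summed to 3053 to 25951 over all groups, and 10 of the 19 were too low to test. In bulk tissue, fewer cells of a type and less RNA per cell cannot be told apart.

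Of the 10 iron genes, under the lymph node label, 0 were called after 1 day, 1 was lower after 3 days and 4 were lower after 14 days, and none was called higher. Blvrb was the one at 3 days, and Blvrb, Slc48a1, Hmox1 and Ftl1 were the 4 at 14 days. The share of all 18215 tested rows called was 1.21% after 1 day, 1.24% after 3 days (0.906% lower) and 0.791% after 14 days (0.681% lower). The median change of the 10 was 0.02 after 1 day, -0.20 after 3 days and -0.30 after 14 days on the log2 scale, against medians within 0.01 of 0 over all rows. The 10 genes together took 0.721 to 0.799% of the reads in untreated libraries, 0.700 to 0.758% after 1 day, 0.606 to 0.692% after 3 days and 0.580 to 0.661% after 14 days.

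**Figure D2:**
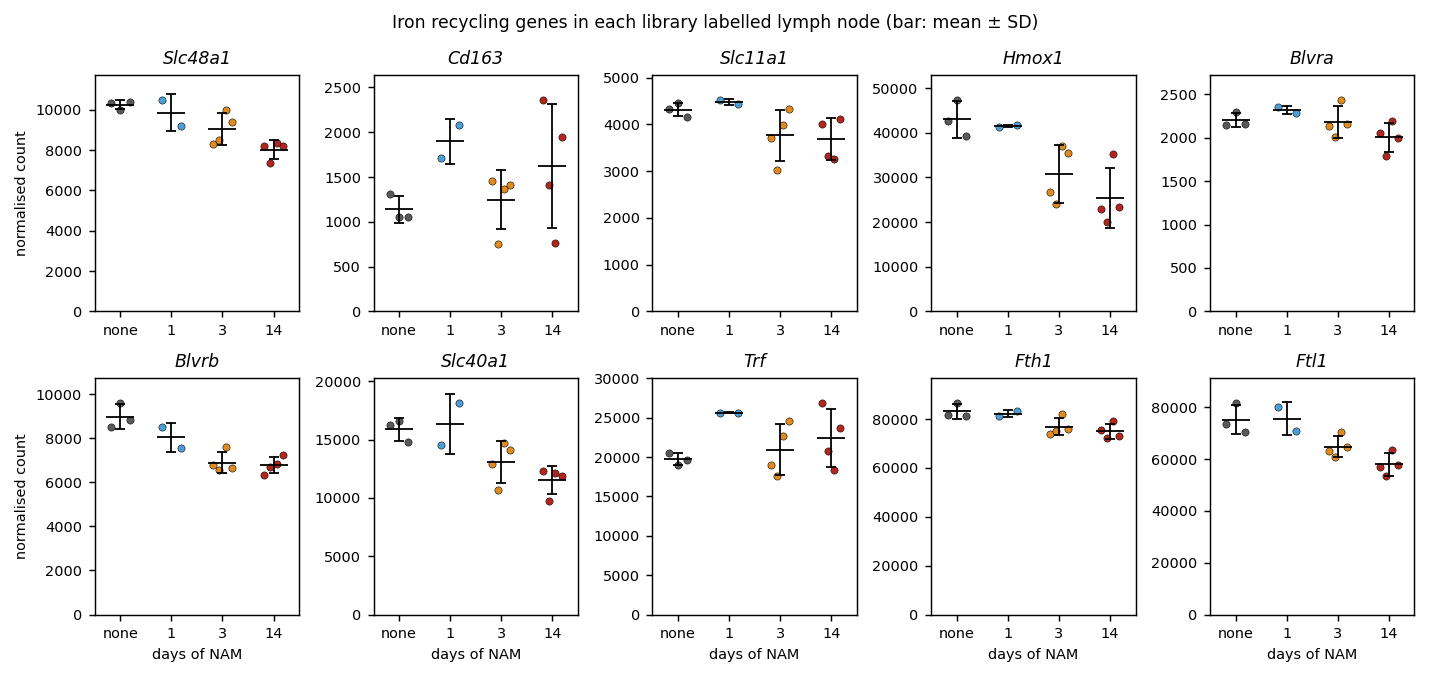
Normalised counts of the 10 genes in each of the 13 libraries labelled lymph node, by days of NAM; points are libraries, and bars give the mean ± SD. For Blvrb, Slc48a1, Hmox1, Ftl1 and Slc40a1 all 4 libraries at 3 days and all 4 at 14 days lie below all 3 untreated libraries.

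Among the haem breakdown genes, Blvrb (chromosome 7, 27447978 to 27465986, plus strand) fell at both later durations. Its normalised counts were 8529, 9601 and 8832 in the untreated libraries, 8505 and 7577 after 1 day, 6769, 6555, 7607 and 6641 after 3 days, and 6333, 6709, 6828 and 7238 after 14 days. Every treated library lay below every untreated one, and the 3-day and 14-day libraries overlapped each other. The log2 change was -0.38 ± 0.07 (SE; 76.7% of untreated; limma, adjusted p = 0.00935) after 3 days and -0.41 ± 0.07 (75.4% of untreated; limma, adjusted p = 0.0115) after 14 days. Both calls were lost without untreated replicate 2, the highest untreated library (limma, adjusted p = 0.095 and 0.107), and held without any other single library of the 2 groups compared.

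Hmox1 (chromosome 8, 75093617 to 75100592, plus strand) fell the furthest in estimate. It stood at 42576, 47373 and 39207 untreated, at 41307 and 41722 after 1 day, at 26704, 23969, 37082 and 35383 after 3 days, and at 22878, 19963, 35167 and 23459 after 14 days. The 1-day libraries sat inside the untreated range, and the later ones were all below it but spread widely. The change was -0.50 ± 0.16 (SE, limma, adjusted p = 0.157) after 3 days and -0.79 ± 0.16 (57.7% of untreated; limma, adjusted p = 0.0304) after 14 days. Blvra (chromosome 2, 127070657 to 127097076, plus strand), the other reductase, was not called, with 2147 to 2295 untreated, 2007 to 2437 after 3 days and 1789 to 2190 after 14 days. Its 14-day change was -0.14, with a 95% interval of -0.30 to 0.03.

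Of the uptake and transport genes, Slc48a1 (chromosome 15, 97784364 to 97792692, plus strand) fell at 14 days. Its counts were 10341, 10009 and 10406 untreated, 10487 and 9190 after 1 day, 8296, 8489, 9969 and 9385 after 3 days, and 8222, 7336, 8346 and 8185 after 14 days. The 14-day libraries lay clear of the untreated ones, while the highest 3-day library came close to them. The change was -0.19 ± 0.07 (SE, limma, adjusted p = 0.244) after 3 days and -0.36 ± 0.07 (78.2% of untreated; limma, adjusted p = 0.0304) after 14 days. Slc11a1 (chromosome 1, 74375201 to 74386052, plus strand) was not called, at 4163 to 4457 untreated, 3035 to 4332 after 3 days and 3258 to 4113 after 14 days (change -0.24 ± 0.10, limma, adjusted p = 0.376).

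Cd163 (chromosome 6, 124304651 to 124330527, plus strand) was called at no duration in the main fit. It stood at 1310, 1054 and 1051 untreated, 1717 and 2078 after 1 day, 1453, 752.7, 1361 and 1412 after 3 days, and 2361, 1408, 761.6 and 1951 after 14 days. Both 1-day libraries were above the untreated range, and at 3 and 14 days 1 library in each group was below it. The 1-day change was 0.74 ± 0.34 (SE, limma, adjusted p = 0.320). It was 0.88 without the library rich in acinar markers and 0.60 without the other 1-day library, and it was not called in either case. Over the settings that kept all libraries its lowest adjusted p was 0.0157 (limma), below the threshold. It also passed by unadjusted p with a 1.5-fold change.

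Of the export genes, Slc40a1 (chromosome 1, 45908070 to 45926519, minus strand) had 16282, 16598 and 14785 normalised counts untreated, 14503 and 18139 after 1 day, 12880, 10667, 14704 and 14130 after 3 days, and 12349, 9719, 12131 and 11851 after 14 days. No library at 3 or 14 days reached the lowest untreated value, though the highest 3-day library lay just below it. The change was -0.29 ± 0.11 (SE, limma, adjusted p = 0.224) after 3 days and -0.47 ± 0.11 (72.2% of untreated; limma, adjusted p = 0.0550) after 14 days, which missed the threshold. It was called with a pseudocount of 5 (limma, adjusted p = 0.0498), with library weights (limma, adjusted p = 0.0332) and by DESeq2 (adjusted p = 0.0039), and under no other setting that kept all libraries. Trf (chromosome 9, 103204001 to 103230318, minus strand) was at 18969 to 20479 untreated, at 25648 and 25614 after 1 day, 17535 to 24522 after 3 days and 18373 to 26846 after 14 days. Its 1-day change of 0.38 ± 0.14 (SE, limma) had an adjusted p of 0.206, and was 0.38 without either 1-day library in turn. Over the settings that kept all libraries its lowest adjusted p was 0.0247 (limma), below the threshold.

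For the storage pair, Ftl1 (chromosome 7, 45457945 to 45459886, minus strand) fell at 14 days. It measured 73746, 81633 and 70456 untreated, 80197 and 71052 after 1 day, 63025, 60936, 70327 and 64867 after 3 days, and 56948, 53343, 63689 and 57834 after 14 days. The lowest untreated value and the highest 3-day value nearly met, and the 14-day values were lower still. The change was -0.22 ± 0.08 (SE, limma, adjusted p = 0.199) after 3 days and -0.38 ± 0.08 (77.0% of untreated; limma, adjusted p = 0.0304) after 14 days. Fth1 (chromosome 19, 9980598 to 9985111, plus strand) varied least among libraries and was not called, at 81246 to 86567 untreated and 72238 to 79147 after 14 days, a change of -0.15 ± 0.06 (SE, limma, adjusted p = 0.335).

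Some of these separations are common in so few libraries. After 1 day, both treated libraries were below all untreated ones for Blvrb and above them for Cd163 and Trf, as they were for 15.5% (below) and 17.1% (above) of all tested rows. After 3 days, 5 of the 10 genes had every treated library below every untreated one, against 7.25% of all rows, and after 14 days 7 of the 10 did, against 6.02%. Those 7 were the 5 of the 3-day group (Blvrb, Slc48a1, Hmox1, Ftl1 and Slc40a1) with Fth1 and Slc11a1.

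The count of 4 at 14 days rested on single libraries. Without untreated replicate 2 no gene was called, 1 was called without untreated replicate 1 or without 14-day replicate 1, 2 or 4, 2 without untreated replicate 3, and 4 without 14-day replicate 3. All 4 changes had the same sign in each case.

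**Figure D3:**
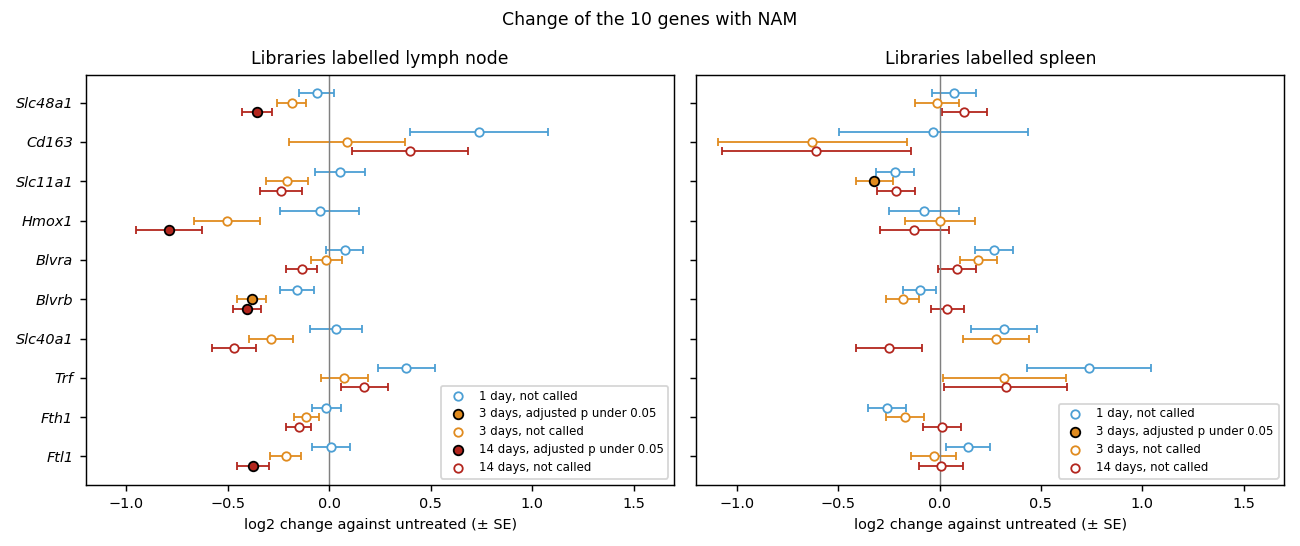
Log2 change of the 10 genes against untreated libraries (point) with its standard error (bar), after 1, 3 and 14 days of NAM, in libraries labelled lymph node (left) and spleen (right); filled points have an adjusted p under 0.05. The 5 filled points on the left, Blvrb at 3 and 14 days and Hmox1, Ftl1 and Slc48a1 at 14 days, are all below 0, and on the right Slc11a1 at 3 days is filled.

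The erythroid list and the iron genes did not follow the same course over time in their estimates. The median change of the erythroid list was -0.57 after 1 day, -3.18 after 3 days and -1.99 after 14 days, while that of the 10 iron genes was further from 0 after 14 days than after 3 days. Hmox1, Ftl1, Slc40a1 and Slc48a1 were lower at 14 days than at 3 days by 0.29, 0.16, 0.18 and 0.17 on the log2 scale, and Blvrb by 0.02. Tested directly, 14 days against 3 days, in a comparison added after the values were seen, 0 of the 10 genes and 0 of the 19 erythroid genes were called by limma (smallest adjusted p = 0.776 among the iron genes and 0.312 among the erythroid genes, and 2 of the 10 had an unadjusted p under 0.05; edgeR and DESeq2 also called 0 of the 10), and only 0.011% of all rows were. The difference in course was therefore not established in these libraries.

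Across the 13 libraries labelled lymph node, the slope of each gene on the erythroid score was fitted with limma on the log2 scale. All 10 slopes were above 0, where 50.8% of all rows had a slope below 0. Blvrb alone was called, at 0.11 ± 0.03 (SE, 95% interval 0.06 to 0.16, limma, adjusted p = 0.0476), when 0.714% of all rows were. Slc11a1, Slc40a1, Hmox1 and Ftl1 had slopes of 0.10, 0.12, 0.16 and 0.07, with adjusted p between 0.173 and 0.504. With the 4 groups as a term, so that only differences within groups counted, no slope was called (limma, adjusted p = 0.999 for each), and Slc11a1 and Cd163 had an unadjusted p under 0.05. Blvrb then had a slope of 0.03, Slc40a1 0.07 and Trf 0.07, while Slc11a1 had 0.13 and Cd163 the largest at 0.38. The slopes of Hmox1 (-0.01), Ftl1 (-0.01), Slc48a1 (-0.02), Fth1 (-0.02) and Blvra (-0.002) were below 0. The Blvrb call was also lost without any one of 10 of the 13 libraries.

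**Figure D4:**
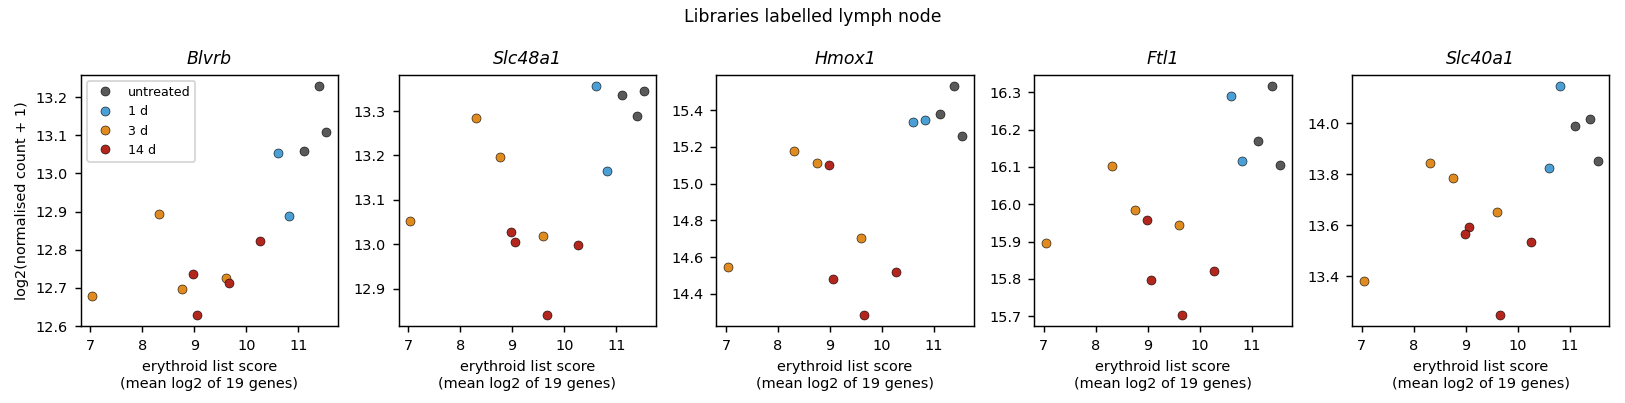
Log2(normalised count + 1) of Blvrb, Slc48a1, Hmox1, Ftl1 and Slc40a1 against the erythroid list score (mean log2 of 19 genes) in the 13 libraries labelled lymph node, coloured by days of NAM. Untreated libraries lie at the upper right of each panel; the 3-day library with the lowest score (7.04) is not the lowest library in any of the 5 panels.

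With the erythroid score as a covariate in the comparison with untreated libraries, no gene was called at 3 or 14 days. The 14-day changes themselves were -0.81 for Hmox1, -0.40 for Ftl1, -0.39 for Slc48a1, -0.35 for Blvrb and -0.34 for Slc40a1, close to those without it for the first 3 genes, and all had an adjusted p of at least 0.679 (limma). That of Slc11a1 was -0.0027 instead of -0.24, and the 3-day change of Slc40a1 was -0.088 instead of -0.29 and that of Slc11a1 0.16 instead of -0.21. Cd163 was at 1.20 instead of 0.09 after 3 days and at 1.11 instead of 0.40 after 14 days, again without a call. The erythroid score was lower in every 3-day and 14-day library than in any untreated one, so its part and that of NAM cannot be told apart. By pattern alone, the single-gene rows most like Blvrb over the 13 libraries were Gfi1b, a transcription factor of red cell and platelet precursors (Pearson r = 0.944), Slc43a1 (0.931) and Glrx5, which serves iron-sulphur cluster assembly (0.922). The libraries share their groups and the erythroid decline, so these values only describe likeness.

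Markers of the cells that recycle iron were measured beside these changes. Of 9 red pulp macrophage markers, 8 were tested, and none was called at 1, 3 or 14 days under the lymph node label (smallest adjusted p = 0.116, 0.225 and 0.116). Their sum was 57079 to 59227 normalised counts untreated, 69551 to 77783 after 1 day, 50924 to 66646 after 3 days and 48516 to 68663 after 14 days, and their score was 10.7 to 10.9 untreated and 10.4 to 10.7 after 14 days. The sum at 14 days thus spanned the untreated range, but Csf1r, with a median of 29572 over the 13 libraries, had the largest weight in it. The lowest 14-day score, 10.36, lay below the lowest untreated one, 10.66. Of 9 neutrophil markers, 2 that mark granulocyte precursors, Mpo and Elane, were lower after 14 days, at log2 changes of -1.59 and -1.24. The part of these markers in the changes of the iron genes was not tested.

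Other genes of iron handling were taken from lists set beside the 10. Of 12 iron and haem import genes, 1 was lower after 1 day, 4 after 3 days and 4 after 14 days under the lymph node label, and none was higher, where 1.21% of all rows were called after 1 day and 0.906% and 0.681% were called lower after 3 and 14 days. Tfr2, the transferrin receptor of liver and red cell precursors, fell by 1.60, 2.39 and 1.90 on the log2 scale (limma, adjusted p = 0.0335, 0.000587 and 0.00501). Slc25a37, the mitochondrial iron importer mitoferrin of red cell precursors, fell by 0.47 after 3 days (limma, adjusted p = 0.00247), and Steap3, the ferrireductase of red cell precursors, by 1.13 after 14 days (limma, adjusted p = 0.0139). Tfrc, which carries the 3′ UTR elements shown above, fell by 0.76 after 3 days (limma, adjusted p = 0.0303) and Alas2 by 1.73 (limma, adjusted p = 0.0452), both of them named for their sequences. Of the 8 tested genes of haem export and binding, the 3 of iron storage and chaperones, the 8 of iron sensing and the 7 that control the haem response, among them Bach1, Nfe2l2 and Spic, none was called at any duration. Spic was at -0.35 after 14 days (limma, adjusted p = 0.116).

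Under the spleen label, where the erythroid list was low, the same 10 genes gave 0 calls after 1 day, 1 after 3 days and 0 after 14 days. The shares of all 18243 rows called were 16.6%, 5.55% and 0% (510 rows had an unadjusted p under 0.05 after 14 days). The one call was Slc11a1 at 3 days. Its normalised counts were 770.5, 825.4, 1068, 765.5 and 793.7 untreated and 612.8, 745.1, 648.8, 790.7 and 578.1 after 3 days, so that the groups overlapped at their edges. The change was -0.32 ± 0.09 (SE; limma, adjusted p = 0.0480), and the call was lost without any one of 9 of the 10 libraries in this comparison. In the 1-day and 14-day groups Slc11a1 lay at 679.3 to 771.0 and 686.2 to 765.9.

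**Figure D5:**
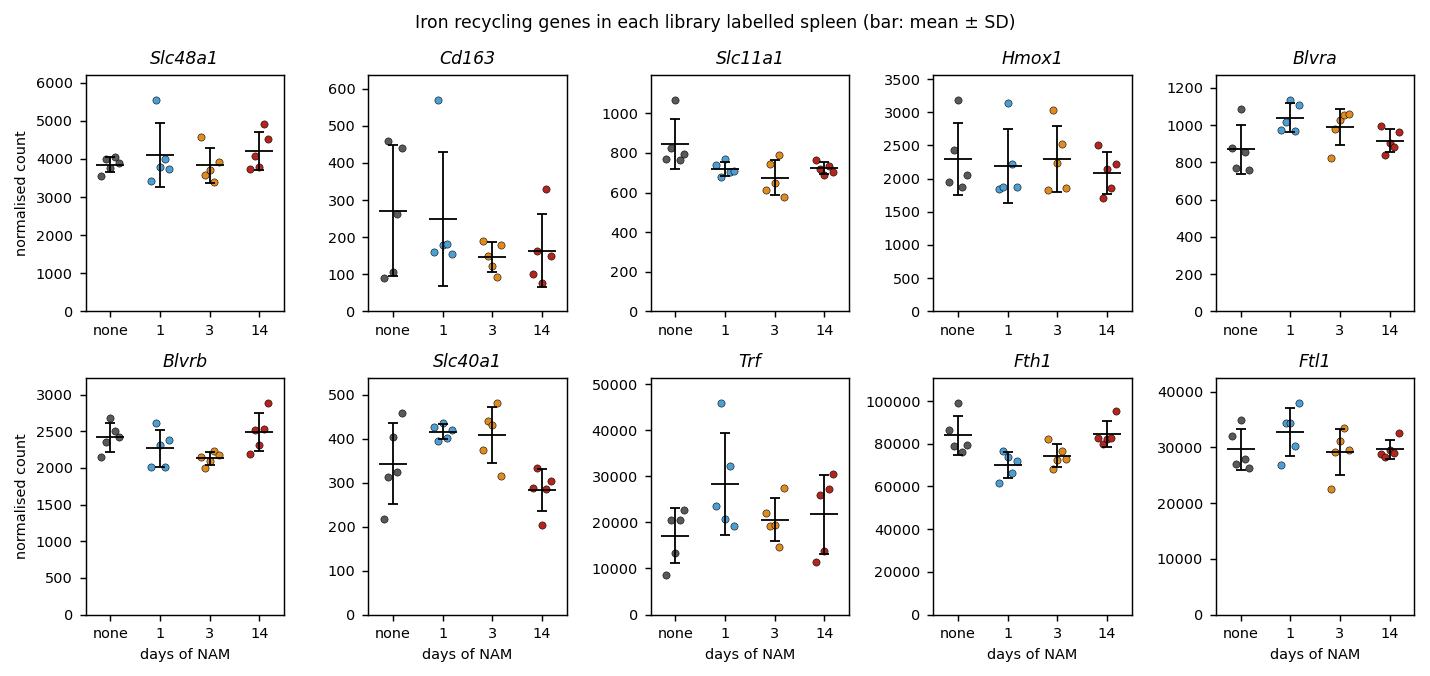
Normalised counts of the 10 genes in each of the 20 libraries labelled spleen, by days of NAM; points are libraries, and bars give the mean ± SD (n = 5). Each treated group overlaps the untreated one for every gene; Trf and Cd163 spread most within groups.

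After 1 day under the spleen label, 4 of the 10 had an unadjusted p under 0.05, namely Blvra (0.27 ± 0.09, adjusted p = 0.0520), Fth1 (-0.26 ± 0.09, adjusted p = 0.0621), Trf (0.74 ± 0.30, adjusted p = 0.105) and Slc11a1 (-0.22 ± 0.09, adjusted p = 0.110), all from limma with SE. None of these passed the threshold in a comparison where 16.6% of rows did. The counts of Blvra were 761.7 to 1086 untreated and 970.8 to 1136 after 1 day, and those of Fth1 76198 to 99024 and 61378 to 76582. Trf spread from 8548 to 22642 untreated and from 19316 to 45885 after 1 day. The 9 adipocyte markers summed to 34557 to 186684 untreated and 111675 to 478155 after 1 day, and the untreated library lowest in Trf (replicate 1) and the 1-day library highest in it (replicate 2) were also the lowest and the highest of their groups in the adipocyte score, 10.6 and 14.5. With the adipocyte score as a covariate the 1-day change of Trf was 0.19 (limma, adjusted p = 0.106), and that of Blvra was 0.34 (adjusted p = 0.0133). Cd163 spread from 90.0 to 460.2 untreated and from 155.6 to 569.9 after 1 day, and the other 5 genes changed by -0.10 to 0.32 without a call.

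At this label the wider iron lists gave calls in both directions, which are read against the 16.6% of all rows called after 1 day and the 5.55% called after 3 days. After 1 day, 3 of 8 tested genes of haem export and binding were higher, led by Pgrmc1, a haem-binding membrane protein (0.67, limma, adjusted p = 0.00157), and Abcg2, a haem and porphyrin exporter (0.35, limma, adjusted p = 0.00676), and 2 of 8 after 3 days. Ncoa4, which delivers ferritin to the lysosome, rose by 0.52 after 1 day (limma, adjusted p = 0.000379), the only one of 3 tested storage and chaperone genes to be called. Of 11 tested genes of iron sensing, 3 were higher and 1 lower after 1 day, the lower one Hamp2, a hepcidin gene (-1.63, limma, adjusted p = 0.00194), and Fbxl5, the iron-sensing ligase subunit, higher (0.33, limma, adjusted p = 0.00367), and 1 of 11 was higher after 3 days. Of 12 import genes 1 was higher (Slc11a2, 0.31) and 1 lower (Slc25a28, -0.29) after 1 day, a share close to that of all rows. None of the 7 genes that control the haem response was called. Among the 8 tested red pulp macrophage markers Vcam1 was higher and Treml4 lower after 1 day and after 3 days. After 1 day 1 of 8 tested neutrophil markers (Ltf, which is also on the iron sensing list) and 1 of 9 adipocyte markers (Retn) were higher. Of 6 markers of lymph node stroma and venules 1, Madcam1, was lower after 1 day and after 3 days (limma, adjusted p = 0.0177 and 0.0133). Mitochondrial transcripts took 8.92 to 9.85% of the reads in the untreated libraries, 4.85 to 8.21% after 1 day, with no overlap, 5.95 to 14.0% after 3 days and 8.44 to 11.9% after 14 days. The part of these measures in the calls was not tested.

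Whether the changes differed between the labels was tested as the change under the lymph node label minus that under the spleen label. None of the 10 genes was called at 1, 3 or 14 days by limma, in comparisons where 1.69%, 0.735% and 0.14% of 17147 rows were, and 0, 1 and 4 of the 10 had an unadjusted p under 0.05. The 4 at 14 days were Blvrb (difference -0.44 ± 0.12, SE, limma, adjusted p = 0.212), Slc48a1 (-0.48 ± 0.15, adjusted p = 0.477), Ftl1 (-0.38 ± 0.15, adjusted p = 0.864) and Hmox1 (-0.67 ± 0.27, adjusted p = 0.864), and the one at 3 days was Slc40a1 (-0.57 ± 0.22, adjusted p = 0.246). The falls seen under the lymph node label are thus not shown to be particular to it. The 95% interval of the 14-day difference for Blvrb ran from -0.68 to -0.21.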

How the data were processed

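Per the labels, polyA RNA was prepared with a TruSeq kit and sequenced in paired-end mode, and the submitters' processing notes name STAR 2.4.0, DESeq2 and mm10. The authors deposited one table of normalised values, a signal made of read counts divided by DESeq2 size factors, which may have been set per tissue label. All non-zero values (100%, tolerance 0.02) were whole multiples of 1 read in each library, so whole reads were recovered and used for depth and for edgeR and DESeq2 alternatives. Strand use in counting is not given in the sources used here. The 10 symbols matched 1 row each.

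The members, gene lists and tests were chosen with earlier results of these data known. All 10 members are described in each comparison, and for each pathway list at most 2 genes with the smallest p are named, beside marker genes, genes named for their sequences and lists of 5 or fewer calls, which were named after their values were seen. Values were tested as log2(value + 1) with limma 3.58.1 (R 4.3.3), with an intensity trend, on all 4 groups of a label, two-sided, on rows with a mean of at least 10, with Benjamini-Hochberg adjustment over those rows and a threshold of 0.05. Changes of rows with low counts come out too small on that scale. Intervals and SE come from the same fits. The script was tested on simulated data first. No 2 libraries of a group agreed within counting noise (56 pairs). Alternatives were other pseudocounts, filters, scalings, covariates, tools, a replicate block and leaving out each library. Libraries with equal replicate numbers did not deviate together. Sequences were read from GENCODE vM21 transcripts. Ahsp was not analysed here.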

Additional observations from a re-analysis of the deposited data

Results flagged for a closer look

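In 66 sets of 4 or 5 libraries (the 10 genes and the erythroid score in 6 groups), 7 held a library far from the others by Dixon's gap ratio, where chance gives about 1 in 20, or 3.3 sets. Under the lymph node label these were Cd163 after 3 days (replicate 2, 752.7 against 1361 for the nearest library) and Slc48a1 after 14 days (replicate 2, 7336 against 8185). Under the spleen label they were 3 genes after 1 day, Cd163 (replicate 2, 569.9 against 180.5), Slc48a1 (replicate 2, 5551 against 4011) and Hmox1 (replicate 3, 3146 against 2215), as well as Fth1 after 14 days (replicate 5, 95298 against 82766) and Slc11a1 in untreated libraries (replicate 3, 1068 against 825.4). The 3-day replicate 2 under the lymph node label that was low in Cd163 also had the lowest erythroid score, 7.04, and replicate 2 of the 1-day spleen-label group had the highest adipocyte score, 14.5; the part of either in these values was not tested.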

How the results depend on the processing

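Of 125 counts of called genes under another setting, 93 stayed within 1.5 times the reported count. Under the lymph node label, the count after 1 day (0) became 2 with the 2 groups alone, 1 with the adipocyte score as a covariate and 1 by unadjusted p with a 1.5-fold change. The count after 3 days (1) became 2 with quantile normalisation, 0 with the erythroid score as a covariate and 0 by the fold rule, and ranged from 0 to 1 when 1 library was left out. The count after 14 days (4) became 1 without a filter, 2 with the 2 groups alone, 0 with the erythroid score and 1 by the fold rule, was 5, with Slc40a1, with a pseudocount of 5, library weights or DESeq2, and ranged from 0 to 4 when 1 library was left out. Under the spleen label, the count after 1 day (0) became 2 with a filter at 50, 1 with quantile normalisation, TMM scaling, library weights, the adipocyte score, edgeR or the fold rule and 2 with DESeq2, and ranged from 0 to 1. The count after 3 days (1) became 4 with library weights, 2 with the adipocyte score and 0 without a filter, with TMM scaling, with the 2 groups alone, in the replicate block, with edgeR or by the fold rule, and ranged from 0 to 1. For differences between the labels, 0 became 2 after 3 days with library weights and 1 after 14 days by the fold rule. The slope count (1) became 0 without a filter, with a filter at 50, with the group as a term and in the replicate block, and ranged from 0 to 1. The causes were not tested.

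In the replicate block the count after 14 days under the lymph node label was 3. Under that label 16 pairs of libraries with equal numbers correlated at -0.11 to 0.08, and 1 of 13 libraries correlated best with its own number, and under the spleen label 30 pairs ranged from -0.50 to 0.47 with 4 of 20, so the numbers were not taken as pairs. Signs turned for genes that were not called. After 3 days under the lymph node label Trf was -0.0094 with quantile normalisation, Cd163 -0.028 with library weights and -0.014 in the replicate block, and Slc11a1 0.16 with the erythroid score. With 1 library left out, Blvra ranged from -0.069 to 0.024, Cd163 from -0.0015 to 0.31 and Trf from -0.0079 to 0.15. The slopes of Hmox1 and Ftl1 with the group as a term were -0.0091 and -0.0094. With 2 libraries after 1 day, leaving out 1 assumes that the other varies like the remaining groups.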
